A study of Glycine max with 4 samples.

Results

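The strongest shared binding sites for the protein of locus GLYMA.13G317000 were described in soybean embryos. A site counted as shared where a replicate 1 peak and a replicate 2 peak overlapped each other more than any other peak, by at least 1 bp. It was placed midway between its summits. The sites described here were the 2644 of 44959 shared sites (5.88%) at which the deposited fold enrichment was at least 20 in both replicates. The label of strongest sites therefore restates the rule, and all fold, read, width and summit values below describe what was chosen and carry no test. The other 42315 shared sites served for comparison.

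The chromatin came from embryos of Glycine max cultivar Williams 82 at mid-maturation, dissected from seeds of 200 to 250 mg. All samples shared this material and a crosslink of 10 minutes in 1% formaldehyde, and none carried a transgene or a mutation in the labels. The 2 ChIP samples were immunoprecipitated with 2 µg of an antibody against a peptide of amino acids 1 to 15 of the protein. The 2 input samples were sonicated chromatin without antibody and enter here only through the authors' peak calls, to which they are presumed to have served as control. The series' design text calls the replicates biological, and the labels do not say how many plants or seeds made up a replicate, and no sample without the protein tests the antibody. Peak lists hold no expression values, so the tissue could not be checked against marker genes.

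Chromatin immunoprecipitation recovers the DNA fragments to which a protein was crosslinked. Fragments from many cells pile up around each bound place, so the summit, the base with the highest pileup, marks the centre of the signal, and the width of a peak grows with the length of the fragments, with the height of the signal above background and with the number of bound places that lie close together. In seeds, mid-maturation is the phase in which the embryo stores protein and oil and prepares for desiccation. Genes for storage proteins and for the enzymes of oil synthesis are then active under the control of DNA-binding proteins and of the hormone abscisic acid. No gene name for the locus was matched here, and the genome build of the peak lists is not given, so the genes and the sequences at the sites were not analysed here. Coordinates follow the authors' peak lists, with the first base of a chromosome as 1.

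The strong sites rested on many reads. The summit pileup, recovered as whole reads from the fold and the p-value of each peak, had a median of 118 reads in replicate 1, with a range of 79 to 316, and of 145 reads in replicate 2, with a range of 78 to 332. At the other shared sites the medians were 30 and 38 reads. Pileup and background both enter the fold, so they describe the choice of sites. The median local background was 3.24 reads at the strong sites and 3.36 reads at the others in replicate 1, and 3.35 reads at both in replicate 2. The upper quartile in replicate 1 was 3.70 reads at the strong sites and 4.17 reads at the others. In replicate 2 it was 3.83 reads at both. Of the other shared sites, 50 had pileups at or above both medians of the strong sites. Their median backgrounds were 6.48 and 4.30 reads, and their median folds were 18.3 and 30.9. The background lay at its genome-wide floor at 32.0% of the strong sites and 27.5% of the others in replicate 1, and at 22.0% and 21.6% in replicate 2.

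The lower of the 2 folds had a median of 25.6, and 1219 sites (46.1%) had a lower fold under 25. Both folds reached 30 at 706 sites, 40 at 166, 50 at 33 and 60 at 6 sites. The site just inside the threshold, at Chr07:44020695-44021503, had folds of 20.0044 and 21.5. The site just outside, at Chr18:46297960-46298417, had folds of 19.9966 and 27.2 over pileups of 100 and 129 reads. The 95% exact Poisson interval of its fold in replicate 1, which covers counting error of the pileup only, ran from 16.3 to 24.3. The threshold therefore separates neighbours in rank that counting cannot tell apart. The next sites inside, at Chr13:43768426-43768947 and at Chr14:47081221-47081789, had replicate 2 folds of 30.3 and 33.1. The next outside, at Chr14:1714980-1715535 and at Chr06:48237531-48238111, had replicate 2 folds of 25.9 in both cases.

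Replicate 1 was the main limit on which sites were chosen. Its fold was the lower one at 2198 of the 2644 sites. A fold of at least 20 was reached by 5.88% of all peaks in replicate 1 and by 8.94% in replicate 2. Of the 2830 shared sites with such a fold in replicate 1, 93.4% reached 20 in replicate 2, where their median fold was 32.1. Of the 5543 shared sites that reached 20 in replicate 2, 47.7% reached 20 in replicate 1, with a median fold there of 19.5 and with 113 sites under 10. Without the fold threshold in replicate 1 the rule would thus have held for 5543 shared sites. Lists of equal length were also compared by rank, which gives the same percent for both replicates by construction. Of the 2644 highest folds of each replicate, 1982 sites (74.96% of either list) were the same, with folds down to 20.6 in replicate 1 and 26.9 in replicate 2. At the strong sites the replicate 2 pileup was a median of 1.21 times that of replicate 1, against 1.24 times at the others.

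**Figure D1:**
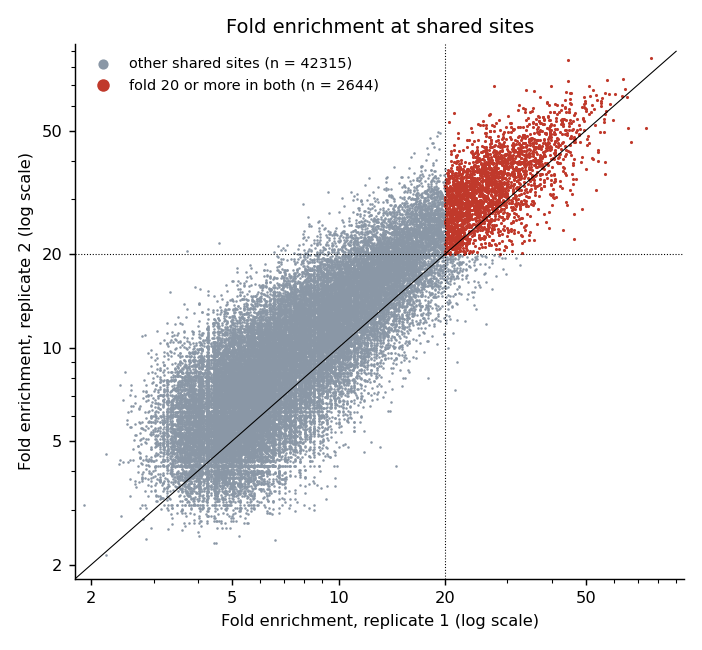
Fold enrichment of each shared site in replicate 1 (horizontal, log scale) and replicate 2 (vertical, log scale). Red points are the 2644 sites at or above the threshold of 20 (dotted lines) in both replicates, grey points the other 42315, and the solid line marks equal folds. Most red points, 2198, lie above that line.

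Every chromosome held sites far above the threshold. The site with the highest lower fold of its chromosome was lowest at Chr14:7218203-7218930, with folds of 43.0 and 54.6 and pileups of 170 and 208 reads. It was highest at Chr16:13050103-13051118, where the site was 1016 bp wide and its summits lay 20 bp apart. That peak stood in an otherwise empty stretch. A single other shared site lay within 100 kb of it, 1.59 kb away, and this neighbour was itself a strong site with a lower fold of 36.3.

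The leading sites of other chromosomes differed in width and in surroundings. At Chr12:39597176-39598193, the folds were 58.5 and 60.9, the summits lay 8 bp apart, and 16 shared sites lay within 100 kb. At Chr10:43748618-43749148, the folds were 55.0 and 61.2 and the shared part was only 531 bp wide, and the nearest shared site stood 0.724 kb away with a lower fold of 5.78. At Chr17:12565232-12565940, the folds were 55.0 and 62.2 and the pileups 218 and 237 reads. On both chromosomes 10 and 17 the replicate 1 peak had 218 reads over the background floor, which gives the same fold.

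Chromosomes 3, 5 and 20 were the exceptions in direction, with the higher fold in replicate 1. The leading site of chromosome 20, Chr20:44348198-44348911, had folds of 56.4 and 54.5 over 225 and 210 reads, with summits 2 bp apart. That of chromosome 3, Chr03:36005705-36006427, had folds of 52.9 and 52.1 over 248 and 300 reads, with backgrounds of 3.70 and 4.78 reads. The leading site of chromosome 5, Chr05:24777742-24778668, likewise had the higher fold in replicate 1, and it stood 1357 kb from the nearest other strong site. In contrast, the leading site of chromosome 15, Chr15:6424523-6425292, had folds of 44.6 and 72.0 over 250 and 296 reads, and its replicate 1 background was raised to 4.63 reads. The pileups of that site thus differed less between replicates than its folds.

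The leading sites of chromosomes 11 and 12 lay near the chromosome ends, at 99.4% and 98.8% of the span, which was taken as the last peak end. The chromosome 11 site, Chr11:34414116-34415055, had folds of 52.0 and 60.2. At Chr19:40810279-40811038, a site with folds of 52.8 and 58.6 had another strong site 2.05 kb away. The leading site at Chr07:8460772-8461548, had folds of 53.4 and 65.1, and its replicate 1 peak, 1259 bp, was wider than its replicate 2 peak of 799 bp. At Chr06:16966287-16967182, the summits of the leading site stood 53 bp apart, with folds of 49.9 and 59.1. The lead on chromosome 9 by the lower fold fell to a site at Chr09:41320916-41321686, with folds of 49.8 and 61.2. At Chr04:4416783-4417507, the folds were 49.6 and 50.1, and a weak shared site with a lower fold of 4.796 stood 0.890 kb away.

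The remaining leading sites differed in their distance from other strong sites. At Chr13:31605606-31606380, a second strong site with a lower fold of 29.2 stood only 0.866 kb away. At Chr08:39326741-39327625, the summits lay 87 bp apart and the nearest other strong site was 431 kb away. At Chr18:52462824-52463793, the summits lay 3 bp apart and the nearest shared site, 1.01 kb away, had a lower fold of 6.04. Both leading sites on chromosomes 1 and 2 were wide, at 1333 and 1334 bp, with summits 13 and 10 bp apart, and few other shared sites, 3 and 6, lay within 100 kb. A high fold thus occurred in dense and in sparse surroundings alike. Outside the chromosomes the strongest site lay on scaffold_21 at 3067517 to 3068164, with folds of 35.9 and 35.6 over 142 and 188 reads.

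Strong sites were wide. The part shared by both peaks had a median width of 649 bp (quartiles 566 and 777), against 370 bp (294 and 468) at the other shared sites. The strong sites were the wider group on 20 of 20 chromosomes by their medians. In replicate 1 the median peak width was 756 bp at strong sites and 421 bp at others, and in replicate 2 it was 675 and 417 bp. Width was read from the same peak calls as the fold, so this is a description. The median rose at each step of the lower fold, from 272 bp below a fold of 5, through 482 bp between 10 and 15 and 554 bp between 15 and 20, to 607 bp between 20 and 25 and 892 bp at the 33 sites of 50 or more. There was no jump at 20. A shared width of 1000 bp or more was seen at 235 strong sites (8.89%) and at 304 others (0.718%).

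Among strong sites width and fold were not the same thing. The widest, at Chr13:38121932-38124325, was 2394 bp across, with folds of 48.8 and 41.0. The second widest, at Chr20:38287058-38289356, was 2299 bp across, with folds of only 22.4 and 34.2 over 88 and 130 reads. On chromosome 10 a site of 2203 bp, at Chr10:47753566-47755768, had folds of 35.9 and 44.4, and its summits agreed to 4 bp although they stood close to one edge. The narrowest, at Chr20:45020576-45020972, was 397 bp across, with folds of 20.1 and 23.5. Ordered by width, the widest 659 strong sites, from 778 bp up, had median folds of 28.1 and 34.9, close to the 27.9 and 34.6 of the 659 sites of 650 to 777 bp. The narrowest 661, up to 565 bp, had 23.0 and 29.2. In the widest group the summit lay a median of 122 bp (replicate 1) or 134 bp (replicate 2) from the centre of the peak, against 28 and 22.5 bp in the narrowest group. The summit of a wide strong peak thus lay farther from its centre, in bp, than that of a narrow one.

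Replicate 1 peaks were the wider ones at strong sites, although replicate 2 had the higher fold at most of them. At 2040 strong sites (77.2%) the replicate 1 peak was wider, with a median difference of 62.5 bp. At other shared sites it was wider at 52.6%, with a median difference of 6 bp. The difference changed steadily with the lower fold, from -7 bp below 5 to 38 bp between 15 and 20 and 111 bp from 50 up. The shortest peak of a list was 250 bp in replicate 1 but 220 bp in replicate 2. The part of that in the widths was not tested.

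The replicates placed the summits of strong sites close together. The median distance was 17 bp (quartiles 7 and 30) at strong sites and 29 bp (13 and 55) at others. The strong sites had the smaller median on 20 of 20 chromosomes. Summits within 25 bp of each other were found at 68.2% of strong sites and at 44.7% of others. The summits come from the same peak calls as the fold, so these values are a description and carry no test. At 51 strong sites (1.93%) both summits were the same base. The median fell from 41 bp below a fold of 5 to 20 bp between 15 and 20 and 18 bp between 20 and 25, again without a step at 20. Above that it stayed between 13 and 18 bp. The pileup at the summit rose along the same steps, from 20 to 242 reads in replicate 1, and its part in the closer agreement was not tested. Peak edges, unlike summits, did not come closer in bp. Starts lay a median of 43 bp apart and ends 46 bp at strong sites, against 37 and 38 bp at others. Relative to the wider peaks the overlap was larger. The shared part made up a median of 86.7% of the joint extent of both peaks at strong sites and 81.6% at others.

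**Figure D2:**
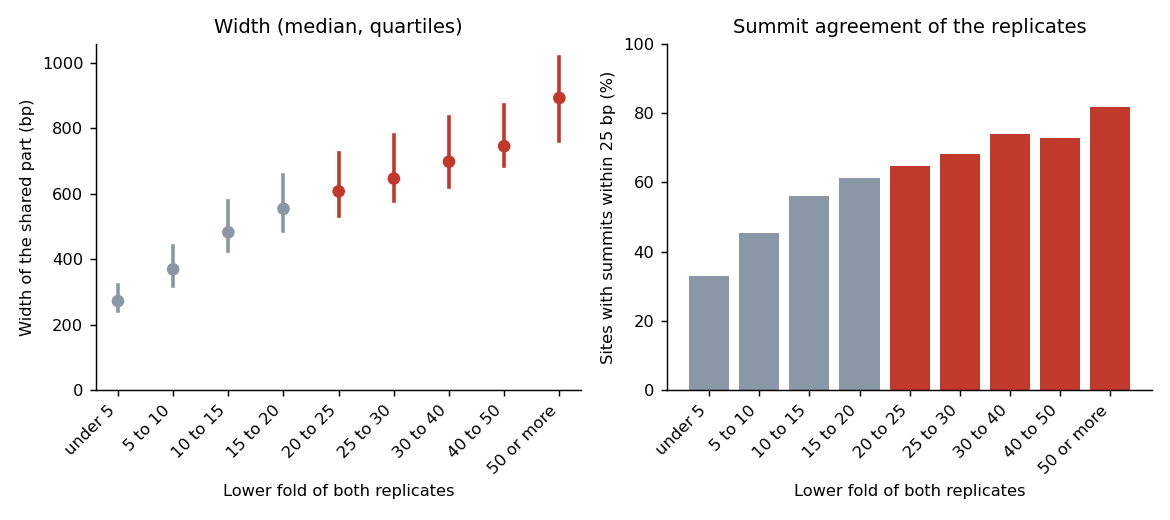
Shared sites by steps of the lower fold of both replicates, with the strong sites in red and the others in grey. The left panel gives the median width of the shared part with its quartiles in bp, and the right panel the percent of sites whose summits lay within 25 bp of each other. The width rises at every step, from 272 to 892 bp. The summit agreement is 33.0% in the lowest step and 81.8% in the highest, with a small dip from 74.1% to 72.9% between the steps on either side of 40.

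A few strong sites had summits far apart. They numbered 26 (0.983%) at more than 100 bp, against 8.04% of the other shared sites, and 19 of the 26 were at least 778 bp wide. The largest distance, 987 bp, was at the site at Chr11:2101658-2102496, with folds of 30.8 and 29.6. The next was 947 bp at Chr14:5471091-5472194, with folds of 40.7 and 34.2, and the third 856 bp at Chr06:9192905-9193685, with folds of 21.0 and 26.3. At all 3 the replicate 1 peak was 1786 to 1985 bp wide and overlapped 2 peaks of replicate 2, so the folds of the pair belong to different summits within 1 stretch. Such splitting was seen at 8 of the 26 sites.

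Splitting of this kind touched 123 strong sites (4.65%) and 2.10% of the others, counted as sites with a peak that overlapped more than 1 peak of the other list. At 109 of the 123 it was the replicate 1 peak that spanned several replicate 2 peaks. The rule leaves out the smaller partners. In replicate 2, 31 peaks with a fold of at least 20 belonged to no shared site, the highest with a fold of 55.8, and all 31 overlapped a replicate 1 peak without being a mutual largest overlap. In 16 cases that replicate 1 peak was part of a strong site. In replicate 1 there were 2 such peaks.

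Strong sites had neighbours at distances close to those of other shared sites. The nearest shared site, of any fold, lay a median of 3.25 kb away at strong sites (quartiles 1.60 and 7.24 kb) and 3.35 kb at others (1.53 and 7.62 kb). Another shared site stood within 10 kb of 82.8% of strong sites and of 81.5% of others. Within a chromosome the strong sites had the higher share on 14 of 20 chromosomes, with a median difference of 0.82 percentage points and a range of -4.10 to 6.51. An exact two-sided sign test over chromosomes gave p = 0.115, and 0.115 after adjustment over both tests of position, so a difference was not shown. The median number of other shared sites within 100 kb on either side was 19 at strong sites and 18 at others.

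**Figure D3:**
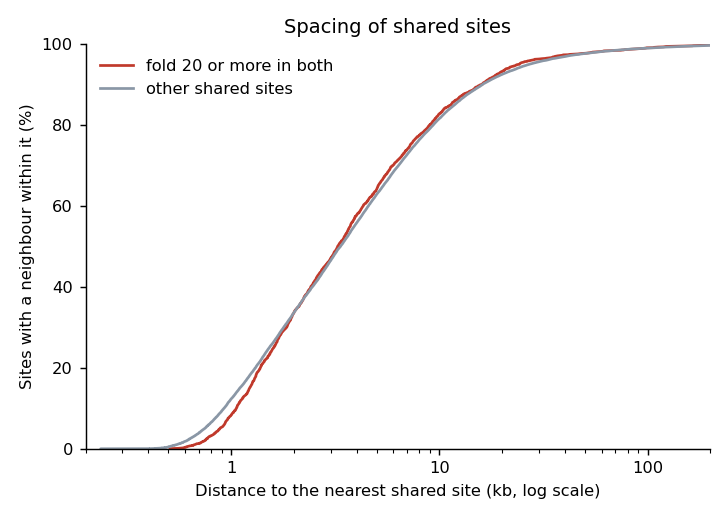
Cumulative percent of sites (vertical) that have another shared site within a given distance (horizontal, kb, log scale), for the strong sites in red and the other shared sites in grey. The curves lie close together from 2 kb upwards, and below it the red curve is lower, with 8.32% against 12.3% at 1 kb.

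At short range the strong sites had fewer neighbours by summit but not by edge. A shared site stood within 1 kb of 8.32% of strong sites and of 12.3% of others, counted between positions. Counted from the edges of the peaks, it did so at 28.0% of strong sites and at 25.3% of others. Each list gives 1 summit per peak, and the strong peaks were wider. The part of width in the share by position was not tested. The median gap from edge to edge was 2.57 kb at strong sites and 2.82 kb at others.

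The neighbours of strong sites were mostly ordinary. The shared site nearest to a strong site had a median lower fold of 6.996, against 6.785 for the one nearest to any other shared site. It was itself a strong site in 203 of 2644 cases (7.68%), against 5.95% for the others. Another strong site stood within 2 kb of 105 strong sites (3.97%), while a strong site stood within 2 kb of 2.24% of the others. Within 10 kb the shares were 14.0% and 11.2%, and within 20 kb 22.4% and 19.5%. These rest on the folds of the neighbours, the measure that chose the sites, and were not tested. The median distance from a strong site to the next strong site was 61.7 kb.

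The closest pair of strong sites lay on chromosome 17, 772 bp from position to position. Its first site, at Chr17:38979988-38980681, had folds of 31.5 and 30.7, and its second, at Chr17:38980887-38981386, had folds of 27.4 and 34.3. The peaks were separated by 168 bp in replicate 1 and by 200 bp in replicate 2, so both lists resolved 2 sites. On chromosome 13 the leading site was the second of a pair 866 bp apart, after a site at Chr13:31604563-31605209 with folds of 30.9 and 29.2 and 122 and 111 reads. A second pair at Chr13:19244582-19245143 and Chr13:19245425-19246072, was 930 bp apart, with folds of 22.2 and 29.8 at the first site and 24.0 and 35.1 at the second. In each of these pairs both replicates had a gap between the peaks.

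Longer runs of strong sites were rare. With steps of at most 20 kb, 588 of the 2626 strong sites on chromosomes (22.4%) fell into 275 runs, of which 241 held 2 sites, 30 held 3 and 4 held 4. None held more. The run at Chr07:7764129-7796350 held 4 strong sites and no other shared site, with lower folds of 21.3 to 28.3. The run at Chr06:47874955-47899163 held 4 strong sites among 10 shared ones, and the other 6 had lower folds of 3.91 to 14.7. At Chr17:12028754-12060439, 4 of 7 shared sites were strong, and the others had lower folds of 8.72 to 17.2. Another run of 4, the shortest of them at 19.4 kb, lay at Chr19:49798072-49817430. Strong sites in these 4 runs had lower folds of no more than 30.5, so the runs did not contain the leading sites of their chromosomes.

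Some strong sites stood alone. The most isolated, at Chr19:10944512-10944998, had no shared site within 642 kb and no strong site within 2771 kb, with folds of 23.1 and 36.8 and summits 24 bp apart. The next, at Chr15:36326805-36327552, was 413 kb from any shared site, with folds of 24.7 and 43.4. The third, at Chr16:23801235-23801762, was 298 kb away, with folds of 21.5 and 27.1. All 3 had lower folds under the median of the strong sites, 25.6, and backgrounds between 2.83 and 3.70 reads. Such isolation was not particular to strong sites. Among the other shared sites the largest distance to the nearest shared site was 1401 kb. The 95th percentile of that distance was 24.2 kb at strong sites and 27.1 kb at the others.

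Strong sites were found on all chromosomes, as a similar share of the shared sites. Each of the 20 chromosomes held between 82 (chromosome 16) and 188 (chromosome 13) of them. As a share of its shared sites this ran from 4.78% on chromosome 1, with 101 of 2112, to 6.87% on chromosome 5, with 143 of 2082, around the 5.88% over all shared sites. Chromosome 13, which had the most strong sites, was near that average at 5.74%. Per Mb of span the number ranged from 1.78 on chromosome 1 to 4.10 on chromosome 13, where all shared sites together stood at 37.2 and 71.4 per Mb. Median folds per chromosome lay between 25.3 and 27.1 in replicate 1 and between 31.8 and 33.9 in replicate 2. Scaffolds held 18 strong sites on 6 scaffolds, 7.53% of their 239 shared sites.

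The share also varied little along the chromosomes. In steps of 10% of the span, pooled over the chromosomes, between 5.34% and 6.17% of the shared sites were strong. The outermost steps had 5.67% and 6.05%, and the step from 50 to 60%, which held the fewest shared sites, had 6.17%, or 72 of 1166. The outer 40% of the spans, 20% at each end, held 69.3% of the strong sites and 68.7% of the others. Within chromosomes the strong sites had the higher outer share on 14 of 20, with a median difference of 0.79 percentage points and a range of -7.17 to 7.42. The exact two-sided sign test over chromosomes gave p = 0.115, and 0.115 after adjustment over both tests, so a difference in place was not shown. With shared sites chosen on the replicate 2 fold alone, without a fold threshold in replicate 1, the median difference was -0.35 points, the opposite direction. How readily reads align along the chromosomes was not examined here.

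**Figure D4:**
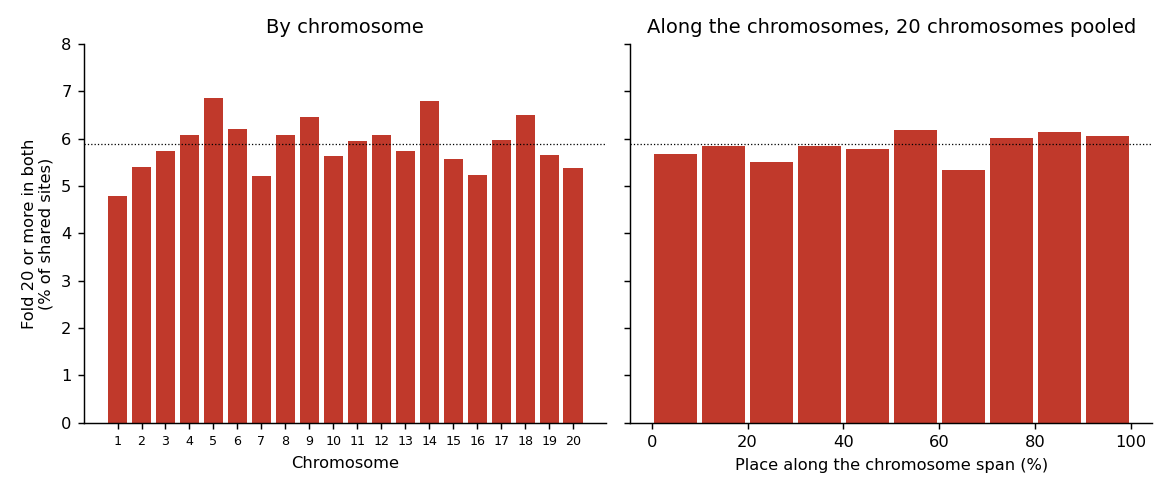
Percent of shared sites with a fold of at least 20 in both replicates, by chromosome (left) and by steps of 10% of the chromosome span pooled over 20 chromosomes (right). The dotted line is the 5.88% over all shared sites. The bars run from 4.78% to 6.87% by chromosome and from 5.34% to 6.17% along the span.

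Single stretches were rich or poor in strong sites. Of 944 bins of 1 Mb with a shared site, 658 held a strong one. The bin with the most, at Chr09:41000001-42000000, held 15 strong sites among 120 shared ones (12.5%), and it contains the leading site of that chromosome. A bin at Chr11:31000001-32000000 held 14 of 95 (14.7%), and one at Chr18:2000001-3000000 held 14 of 118 (11.9%). At the other extreme, the bin at Chr06:13000001-14000000 held 109 shared sites and no strong one, and that at Chr20:1000001-2000000 held 69 and no strong one. These bins are the ends of the observed range and were not tested. The longest stretch without a strong site ran from 11346715 to 24844173 on chromosome 1, 13.5 Mb with 92 other shared sites. On chromosome 10 such a stretch of 11.8 Mb, from 12246543 to 24002167, held 65 other shared sites. On chromosome 8, where it was shortest, it was 3.72 Mb long.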

How the data were processed

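Peaks were called by the authors in each of the 2 ChIP samples, and 1 peak list per sample was deposited. Per the submitters' processing notes, the tools included Bowtie 0.12.7 and MACS2. For the build, the MACS2 settings and the read totals no source was at hand, so they are not given here. The deposited fold is a ratio of summit pileup over local background, and the deposited score equals 10 times the deposited −log10 q-value, rounded down. The deposited −log10 p-value and the fold gave back a whole-read pileup, within 0.001 on the −log10 scale, at all 44959 shared sites in both replicates, taking the fold as (pileup + 1) / (background + 1).

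Analyses used Python 3.11.15, numpy 2.4.6, pandas 2.3.3 and scipy 1.17.1, and were tested on simulated data. The members and lists were chosen with earlier results of these data known. Shares by position were compared within each of the 20 chromosomes and tested with an exact sign test, adjusted by the Benjamini-Hochberg method over both tests. Chromosome spans end at the last peak end. The named sites are the strongest per chromosome and on scaffolds by the lower fold, and the extremes in threshold, width, summit distance, spacing and runs. Alternatives changed the choosing replicate, fold threshold, overlap, distance and end fraction.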

Additional observations from a re-analysis of the deposited data

How the results depend on the processing

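The strong sites numbered 5361 with a threshold of 15 in both replicates and 706 with 30. Without the fold threshold in replicate 1 they numbered 5543, and without that in replicate 2 they numbered 2830, all still shared sites. The other counts, 2601 with an overlap of at least 50% of both peaks, 3846 by the geometric mean and 1982 by rank, lay within 1.5 times of 2644. The last pair of settings was chosen after seeing the data. The width difference between strong and other sites, 279 bp, was 336 bp at a threshold of 30, and 334.5 bp in replicate 1 peaks and 258 bp in replicate 2 peaks. The share of strong sites with summits within 25 bp was 64.7% at a threshold of 15, 74.2% at 30, 66.3% by the geometric mean and 70.0% by rank. The outer-share difference turned to -0.46 points at a threshold of 15, -0.43 by the geometric mean and -1.12 with 10% at each end. It was -0.35 with the replicate 2 fold alone, against 1.39 with the replicate 1 fold alone. Its adjusted p was between 0.115 and 0.824 over 8 alternatives. The neighbour-share difference was positive in all 10 alternatives, between 0.84 and 2.86 points, with adjusted p between 0.0828 and 0.824. The cause of these shifts was not tested. No paired analysis was possible because the input samples have no values here, and ChIP replicates of 1 group have no partner group. The alternatives on chromosome length and motif windows were not run, as they need a genome sequence of the matching build. Read totals are unknown, which limits intervals to the summit pileups.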
